A study of Caenorhabditis elegans with 23 samples.

Results

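The mRNAs of 7 genes of the Argonaute family of *C. elegans* were examined: *rde-1*, *ergo-1*, *alg-1*, *alg-2*, *prg-1*, *prg-2* and *csr-1*. They were chosen by name, as the genes of proteins that bind the first small RNAs made in a silencing pathway. No measured value entered that rule, but earlier results of these data were known when it was set. Matching the sequence names of the genes to the transcripts in the deposited tables gave 13 transcripts of 35749, which belong to 7 of 21982 genes.

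Argonaute proteins hold a short RNA and use it to find RNAs of matching sequence. In the worm, primary Argonautes are loaded with small RNAs cut from long double-stranded RNA (dsRNA), processed from microRNA hairpins or transcribed as piRNAs, and many of them pass their targets on to RNA-dependent RNA polymerases that make a second wave of small RNAs. SID-1 imports dsRNA from outside the cell into the cytosol, where RDE-1 takes up the small RNAs cut from it. Of the genes listed, *csr-1* fits the name primary least well, since CSR-1 binds small RNAs made by an RNA-dependent RNA polymerase, and *prg-2* is annotated as a pseudogene.

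PolyA+ RNA of mixed-stage whole animals was sequenced in 23 libraries of 3 sets, each with its own wild type, the strain N2. In the deletion set, AMJ1324 carried *sid-1(jam113)*, a Cas9 deletion of the *sid-1* coding sequence made in N2, and it is 1 of 2 independent isolates of that edit. In the nonsense and revertant set, AMJ1159 carried *sid-1(jam80)*, a nonsense change made in N2 to mimic an older allele, and AMJ1217 carried *sid-1(jam86)*, in which the change was edited back to the wild-type sequence in AMJ1159. These strains had 3 replicates each. The previously generated alleles had 2 replicates each: *sid-1(qt9)*, the older nonsense allele, in HC196; *sid-1(tm2700)*, a deletion, in FX02700; *sid-1(tm2700); tmIs1005[sid-1(+)]*, the same deletion rescued by a transgene, in FX15992; and N2. The study states that this transgene overexpresses *sid-1(+)*, and its full genotype also lists *vps-45* mini. Animals of the first 2 sets came from plates that were crowded but not starved, and these are called plate sets here. The labels give liquid culture for the previously generated alleles and the study's methods describe plates, so the culture method of that set is not settled. Each allele is represented by 1 strain, apart from *sid-1(tm2700)*, whose other strain also carries the transgene. A difference tied to the allele and one tied to the strain therefore cannot be told apart.

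Total estimated counts ran from 22147631 to 79287591 per library, and the 7 genes had between 1086 and 29980 counts each. *sid-1* itself was between 1.19 and 1.43 CPM (counts scaled to the library total after TMM adjustment, which levels out differences in library composition) in *sid-1(jam113)*, against 49.1 to 54.2 CPM in its wild type, and between 27.8 and 34.1 CPM in *sid-1(jam86)* and 16.4 and 18.6 CPM in *sid-1(jam80)*, against 32.7 to 35.5 CPM in their wild type. It had 14.7 and 18.8 CPM in *sid-1(qt9)*, 21.4 and 23.6 CPM in *sid-1(tm2700)* and 44.0 and 52.0 CPM in the rescued strain, against 31.2 and 32.5 CPM in wild type. Markers of germline, oocytes and embryos, sperm, soma, yolk and cuticle were present in every strain, with no gene of these lists at 0 throughout. In RNA from whole animals, fewer cells of a type and less RNA per cell cannot be told apart.

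Levels were compared between genes in TPM, which scales each transcript by its length and the library total. The 7 genes fell into a high and a low tier in every strain. *csr-1*, *prg-1*, *ergo-1* and *prg-2*, all known from the germline or from oocytes and embryos, filled the upper 4 places in each of the 9 strains and sets. *rde-1*, which acts in most tissues, and *alg-2* and *alg-1*, which carry microRNAs, filled the lower 3 places, and *alg-1* was last each time. The tiers did not overlap in any strain: in *sid-1(jam113)* the lowest value of the upper tier was 74.1 TPM (*prg-2*) and the highest of the lower tier 26.8 TPM (*rde-1*), and in the rescued strain these were 20.5 TPM (*ergo-1*) and 9.54 TPM (*rde-1*).

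Within the upper tier the order differed between sets. In the deletion set *csr-1* averaged 98.2 ± 8.33 TPM in *sid-1(jam113)* and 98.3 ± 3.45 TPM in wild type (SD, n = 3 each), and the ranges of the 4 upper genes in that wild type overlapped from each rank to the next. In the nonsense and revertant set *prg-1* led, with 91.1 ± 4.61 TPM in *sid-1(jam86)*, 101 ± 1.99 TPM in *sid-1(jam80)* and 98.4 ± 8.86 TPM in wild type (SD, n = 3 each), above *csr-1* without overlap in all 3 strains. Among the previously generated alleles *csr-1* was first, and its values overlapped those of *prg-1* in 3 of the 4 strains, *sid-1(tm2700)* being the one where they did not.

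The lower tier also differed between sets. *rde-1* lay between 19.0 and 26.8 TPM in the deletion set, between 13.5 and 16.4 TPM in the nonsense and revertant set and between 8.69 and 11.03 TPM among the previously generated alleles. *alg-2* lay between 15.8 and 19.1 TPM, between 19.6 and 25.3 TPM and between 6.34 and 11.6 TPM in these sets, and *alg-1* between 6.40 and 8.55 TPM, between 9.36 and 12.6 TPM and between 6.02 and 11.01 TPM. Within each strain *rde-1* was above *alg-2* in the deletion set and below it in the nonsense and revertant set, without overlap. Among the previously generated alleles neighbours in the order of these 3 genes overlapped in every strain, except *alg-2* and *rde-1* in *sid-1(qt9)*. With CPM divided by the length of the longest annotated transcript in place of TPM, the order of all 7 was the same in 3 of the 9 strains and sets, while the upper 4 genes were the same in all 9. The libraries of the previously generated alleles were made with other kits and read types than those of the plate sets. The study gives the same protocol for the plate sets and does not state whether these were prepared and sequenced together. Differences between sets therefore cannot be told apart from differences between preparations, and no test of these levels was made across sets.

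**Figure D1:**
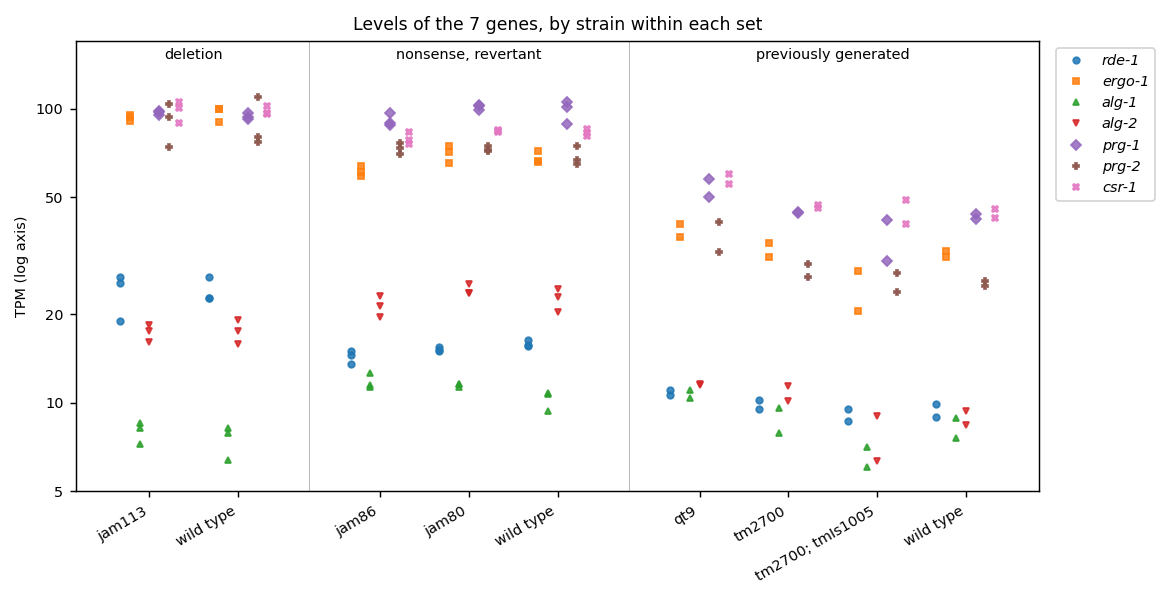
TPM (log axis) of the 7 genes in each library, by strain within each of the 3 sets, 1 symbol and colour per gene. The upper tier (*csr-1*, *prg-1*, *ergo-1*, *prg-2*) and the lower tier (*rde-1*, *alg-2*, *alg-1*) stay apart in every strain, and *rde-1* and *alg-2* change places between the first 2 sets.

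The main question of the design is whether loss of *sid-1*, its reversion or its rescue changes gene expression. No gene of the 7 passed the threshold (adjusted p under 0.05 in edgeR's quasi-likelihood fit, where p-values were adjusted over all genes tested by the Benjamini-Hochberg method) in any of 8 comparisons. Of these 56 tests, 16 had an unadjusted p under 0.05, and limma with voom called 0 and DESeq2 called 1 of them. Among all genes tested, 6.28 to 21.1% had an unadjusted p under 0.05, according to the comparison. The 7 genes had 5 such tests in *sid-1(qt9)* over wild type (15.2% of all genes) and 3 each in *sid-1(jam86)* over *sid-1(jam80)* (18.8%) and *sid-1(tm2700)* over the rescued strain (14.1%), and 0 to 2 in each of the other 5 comparisons. The log2 fold changes were between 0.01 and 0.41 in size. The 95% interval lay within 1.5-fold of no change in 52 of the 56 tests and within 2-fold in all 56, so these data bound the differences and do not show that the strains were equal.

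The share of all tested genes that passed sets the scale for these counts. It was 0.197% for *sid-1(jam113)* over wild type, 0.0665% for *sid-1(jam80)* over wild type, 3.28% for *sid-1(jam86)* over wild type and 1.25% for *sid-1(jam86)* over *sid-1(jam80)*. Among the previously generated alleles it was 1.84% for *sid-1(qt9)* over wild type, 2.07% for *sid-1(tm2700)* over the rescued strain, 1.11% for *sid-1(tm2700)* over wild type and 3.54% for the rescued strain over wild type. With shares of this size 0 of 7 is close to the background in each comparison.

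Library values of the 2 groups did not overlap for 0 of 7 genes in *sid-1(jam113)* over wild type, where 18.0% of all genes did not overlap, and for 2 of 7 in *sid-1(jam80)* over wild type, where 11.7% did not. The counts were 2 of 7 for *sid-1(jam86)* over wild type (26.6% of all genes) and 2 of 7 for *sid-1(jam86)* over *sid-1(jam80)* (23.9%). They were 6 of 7 for *sid-1(qt9)* over wild type (47.1%), 3 of 7 for *sid-1(tm2700)* over the rescued strain (43.6%), 1 of 7 for *sid-1(tm2700)* over wild type (39.5%) and 3 of 7 for the rescued strain over wild type (44.4%). The comparisons within a set share strains: *sid-1(jam86)* and *sid-1(jam80)* have 1 wild type, as have *sid-1(qt9)*, *sid-1(tm2700)* and the rescued strain. The exact two-sided permutation test of single genes cannot give a p below 0.1 with 3 against 3 libraries or below 0.333 with 2 against 2, so that no single gene can pass 0.05 by it.

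**Figure D2:**
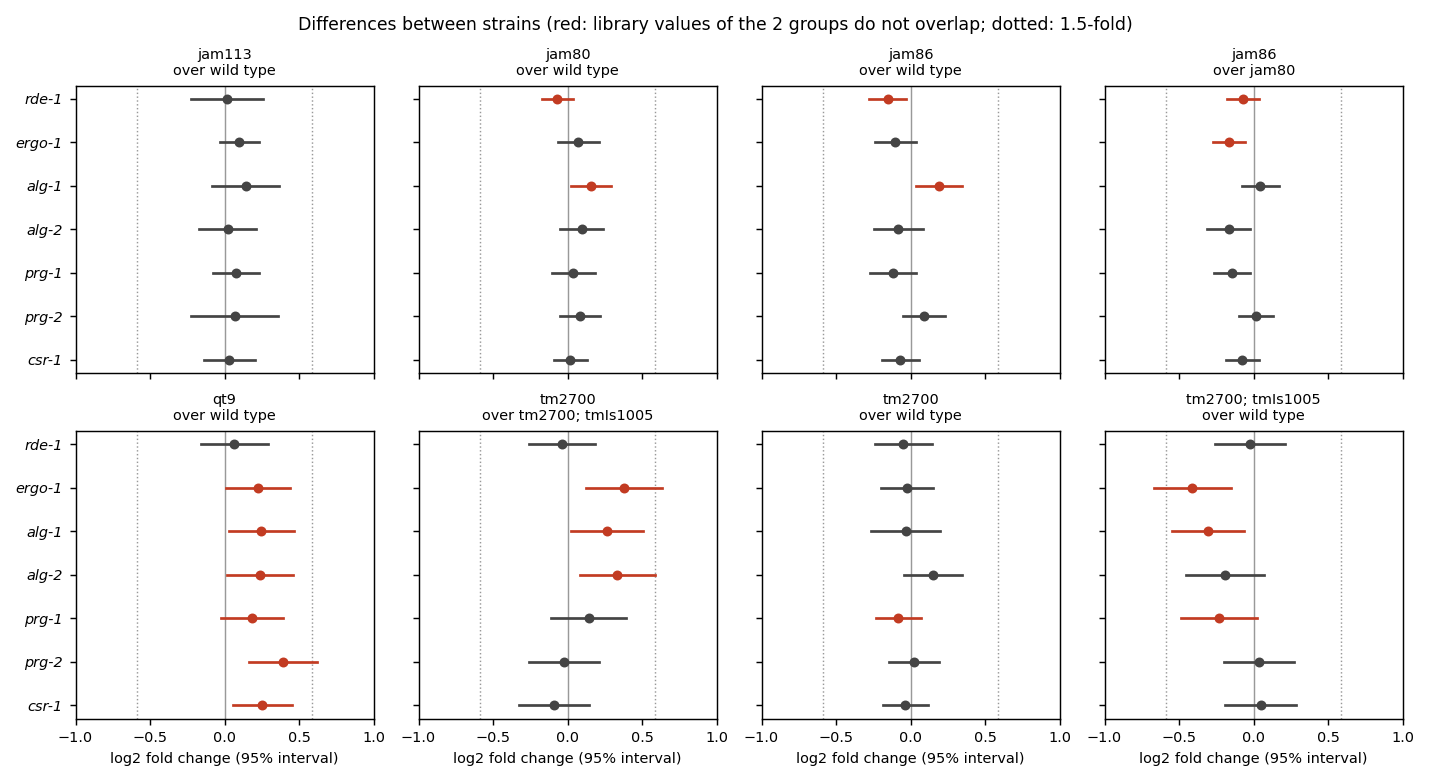
Log2 fold change (point) and 95% interval (line) of each gene from edgeR in the 8 comparisons, with dotted lines at 1.5-fold. Red marks genes whose library values did not overlap between the groups. In *sid-1(qt9)* over wild type these were 6 of 7, all above 0, where 47.1% of all genes did not overlap. None of the 56 differences passed the adjusted threshold.

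*rde-1* (K08H10.7, chromosome V, 9987916 to 9991642, minus strand, WBcel235) encodes the Argonaute that RNA interference by imported dsRNA needs. It had 100.2, 102 and 77.3 CPM in *sid-1(jam113)*, against 91.8, 97.6 and 87.6 CPM in wild type. Replicate 3 of the mutant was the lowest of the 6 libraries and the other two the highest, so the mutant range enclosed that of wild type, with a log2 fold change of 0.01 ± 0.11 (SE). In the nonsense and revertant set *rde-1* had 50.7, 55.0 and 55.2 CPM in *sid-1(jam86)* and 57.1, 56.7 and 56.6 CPM in *sid-1(jam80)*, against 58.9, 61.7 and 58.3 CPM in wild type. All 3 strains were apart, with the revertant lowest.

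The size of these differences was small. The log2 fold change was -0.15 (95% interval -0.28 to -0.03) for *sid-1(jam86)* over wild type, with an adjusted p of 0.143 by edgeR, and -0.07 (-0.18 to 0.03) for *sid-1(jam80)* over wild type, with an adjusted p of 0.826 by edgeR. Among the previously generated alleles *rde-1* was between 55.9 and 64.6 CPM in all 8 libraries, and its log2 fold changes there were between -0.05 and 0.06, with overlap in each of the 4 comparisons. No difference in *rde-1* mRNA passed the adjusted threshold.

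*ergo-1* (R09A1.1, chromosome V, 1008803 to 1018352, plus strand) encodes the Argonaute of small RNAs made from endogenous transcripts in oocytes and embryos. It had 238, 245 and 249.8 CPM in *sid-1(jam113)*, against 221, 221 and 243 CPM in wild type, which overlapped (log2 fold change 0.10, 95% interval -0.03 to 0.23, adjusted p = 0.533 by edgeR). In the nonsense and revertant set it had 219, 226 and 209.6 CPM in *sid-1(jam86)* and 240.0, 242 and 257 CPM in *sid-1(jam80)*, against 215, 254 and 234 CPM in wild type. The revertant lay below *sid-1(jam80)* without overlap, by -0.16 on the log2 scale (95% interval -0.27 to -0.06, adjusted p = 0.116 by edgeR), and DESeq2 called this difference (-0.18, adjusted p = 0.0395), while both strains overlapped wild type. The 14 oocyte and embryo markers had a median of -0.19 in the same comparison, with 1 of them called lower by edgeR. Medians of the other marker lists were -0.08 for germline, -0.07 for yolk, 0.01 for soma, 0.20 for sperm and 0.34 for cuticle, with 0 called in each. The part of these markers in the *ergo-1* value was not tested.

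The largest difference of any of the 7 genes was that of *ergo-1* in the rescued strain. It had 118.8 and 86.2 CPM there, against 139.8 and 132 CPM in wild type. The difference was -0.41 on the log2 scale (95% interval -0.67 to -0.15, adjusted p = 0.0639 by edgeR). The unrescued *sid-1(tm2700)* had 126 and 140.2 CPM, against 118.8 and 86.2 CPM in the rescued strain, a log2 fold change of 0.37 (0.12 to 0.63, adjusted p = 0.122 by edgeR), and it differed from wild type by -0.03 (-0.20 to 0.15). Replicate 2 of the rescued strain was the lowest of the 8 libraries. Without replicate 1 the log2 fold change was -0.64 over wild type (adjusted p = 4.62e-06 by edgeR) and 0.62 for *sid-1(tm2700)* over the rescued strain (adjusted p = 0.000515 by edgeR). Without replicate 2 these were -0.20 (adjusted p = 0.491 by edgeR) and 0.17 (adjusted p = 0.529 by edgeR), so the size of both rested on replicate 2. In such fits, here and for the genes below, the lone library is assumed to vary like the other group. With no filter on lowly expressed genes both differences were called by edgeR, at -0.40 over wild type (adjusted p = 0.0202) and at 0.38 for *sid-1(tm2700)* over the rescued strain (adjusted p = 0.0409). In *sid-1(qt9)* *ergo-1* had 171 and 148 CPM, above wild type by 0.22 (0.01 to 0.43, adjusted p = 0.292 by edgeR).

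*alg-1* (F48F7.1, chromosome X, 13949110 to 13956261, plus strand) and *alg-2* (T07D3.7, chromosome II, 873212 to 879885, plus strand) encode closely related Argonautes that carry microRNAs. *alg-1* had 42.1, 46.4 and 51.5 CPM in *sid-1(jam113)*, against 38.2, 42.3 and 46.6 CPM in wild type, with overlap (log2 fold change 0.14, 95% interval -0.09 to 0.37). In the nonsense and revertant set it had 71.6, 65.0 and 61.9 CPM in *sid-1(jam86)* and 66.6, 63.7 and 64.1 CPM in *sid-1(jam80)*, against 52.2, 61.4 and 60.3 CPM in wild type. Every edited library thus lay above every wild-type library, by 0.19 (0.04 to 0.34, adjusted p = 0.148 by edgeR) for *sid-1(jam86)* and by 0.16 (0.03 to 0.29, adjusted p = 0.763 by edgeR) for *sid-1(jam80)*, and replicate 1 of wild type was the lowest of the 9.

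*alg-2* did not follow *alg-1* in that set. It had 86.6, 80.3 and 72.0 CPM in *sid-1(jam86)* and 89.6, 85.9 and 95.03 CPM in *sid-1(jam80)*, against 76.2, 92.0 and 85.0 CPM in wild type. The revertant was lower than *sid-1(jam80)* by a log2 fold change of -0.17 (95% interval -0.31 to -0.03, adjusted p = 0.196 by edgeR), with overlap of the values 86.6 and 85.9 CPM, and without replicate 1 of *sid-1(jam86)* this was -0.24 with an adjusted p of 0.0441 by edgeR. Without replicate 3 of *sid-1(jam86)* it was -0.10 with an adjusted p of 0.516. In the deletion set *alg-2* was at 62.9 to 74.2 CPM in *sid-1(jam113)* and 63.7 to 73.3 CPM in wild type, which overlapped (log2 fold change 0.02, 95% interval -0.17 to 0.21).

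Among the previously generated alleles the libraries of the rescued strain lay below those of *sid-1(tm2700)* for both genes. *alg-1* had 68.4 and 83.8 CPM in *sid-1(tm2700)*, against 67.4 and 59.0 CPM in the rescued strain, a log2 fold change of 0.26 (95% interval 0.02 to 0.50, adjusted p = 0.296 by edgeR). *alg-2* had 58.8 and 66.3 CPM in *sid-1(tm2700)*, against 57.4 and 41.6 CPM in the rescued strain, a log2 fold change of 0.33 (0.08 to 0.59, adjusted p = 0.177 by edgeR). Neither passed. Without replicate 1 of the rescued strain the *alg-2* difference was 0.58 with an adjusted p of 0.0015 by edgeR, and without its replicate 2 it was 0.12 with an adjusted p of 0.72.

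The rescued strain, at 67.4 and 59.0 CPM of *alg-1* and 57.4 and 41.6 CPM of *alg-2*, was set against wild type at 83.0 and 72.9 CPM of *alg-1* and 58.9 and 53.9 CPM of *alg-2*. It differed by -0.31 for *alg-1* (95% interval -0.55 to -0.07, adjusted p = 0.172 by edgeR) and by -0.19 for *alg-2* (-0.45 to 0.07, adjusted p = 0.526 by edgeR). Without its replicate 1 these were -0.39 (adjusted p = 0.0258) and -0.43 (adjusted p = 0.0211) by edgeR. Without its replicate 2 they were -0.21 (adjusted p = 0.463) and 0.02 (adjusted p = 0.9751) by edgeR, so that *alg-2* changed sign. *sid-1(qt9)* had 90.7 and 94.9 CPM of *alg-1* and 67.0 and 66.5 CPM of *alg-2*, above wild type without overlap, by 0.24 for both genes (95% intervals 0.03 to 0.46 and 0.01 to 0.46, adjusted p = 0.259 and 0.292 by edgeR).

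*prg-1* (D2030.6, chromosome I, 7585329 to 7588367, minus strand) encodes the Piwi protein that binds piRNAs in the germline. It had 307, 304 and 325 CPM in *sid-1(jam113)*, against 320.5, 278 and 289.7 CPM in wild type, and 322, 297 and 315 CPM in *sid-1(jam80)*, against 272, 327 and 312 CPM in wild type. Both pairs overlapped, with log2 fold changes of 0.08 (95% interval -0.08 to 0.23) and 0.04 (-0.11 to 0.18). In the revertant it had 276, 299 and 265 CPM, lower by a log2 fold change of -0.14 (-0.26 to -0.02, adjusted p = 0.191 by edgeR) than *sid-1(jam80)* with overlap.

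In the older strains *prg-1* had 276 and 234.7 CPM in *sid-1(qt9)*, 209 and 212 CPM in *sid-1(tm2700)* and 218 and 163 CPM in the rescued strain, against 226 and 221 CPM in wild type. *sid-1(qt9)* was above wild type and the other two strains below it, all without overlap, and none passed. The rescued strain had the widest difference, -0.23 (95% interval -0.49 to 0.02, adjusted p = 0.397 by edgeR), and without its replicate 1 this was -0.44 with an adjusted p of 0.00329 by edgeR. Without its replicate 2 instead it was -0.04 with an adjusted p of 0.953. In the same way the difference of *sid-1(tm2700)* over the rescued strain, 0.14 (-0.11 to 0.39, adjusted p = 0.67 by edgeR), was 0.36 with an adjusted p of 0.0261 without replicate 1 of the rescued strain. It was -0.05 with an adjusted p of 0.913 by edgeR without replicate 2, so that the direction itself rested on that library.

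*prg-2* (C01G5.2, chromosome IV, 6526962 to 6529802, minus strand) is the close relative of *prg-1* and is listed as a pseudogene by the annotation used, and its transcript was in the upper tier in every strain. It had 284, 305 and 232 CPM in *sid-1(jam113)*, against 239, 307 and 237 CPM in wild type, and its TPM over the 6 libraries ran from 74.1 to 109.6, the widest ratio of highest to lowest, 1.48, among the 7 genes in that set. In the nonsense and revertant set it was at 204 to 224 CPM in *sid-1(jam86)* and 203 to 220.5 CPM in *sid-1(jam80)*, against 187 to 218 CPM in wild type. The differences in the plate sets were between 0.02 and 0.09 on the log2 scale, all with overlap.

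In *sid-1(qt9)* *prg-2* showed the largest difference from wild type of any of the 4 mutants, 185 and 144 CPM, against 126 and 123 CPM in wild type (log2 fold change 0.39, 95% interval 0.16 to 0.62, adjusted p = 0.0671 by edgeR). With no filter on lowly expressed genes edgeR called it (0.39, adjusted p = 0.00976). Without replicate 2 of *sid-1(qt9)* the log2 fold change was 0.57 (adjusted p = 2.43e-05 by edgeR), and *ergo-1* (0.34, adjusted p = 0.033) and *csr-1* (0.33, adjusted p = 0.0363) then passed as well in the same edgeR fit. Without replicate 1 of *sid-1(qt9)* the same genes had 0.21 (*prg-2*, adjusted p = 0.481), 0.12 (*ergo-1*, adjusted p = 0.781) and 0.19 (*csr-1*, adjusted p = 0.53) by edgeR, and none passed. Each of these fits left 1 library of *sid-1(qt9)*, which is assumed to vary like wild type.

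*csr-1* (F20D12.1, chromosome IV, 7957267 to 7962157, plus strand) encodes the Argonaute that associates with small RNAs matching most germline-expressed genes and is essential for fertility. It had 399, 368 and 349 CPM in *sid-1(jam113)*, against 378, 336 and 379 CPM in wild type, and 279 to 306 CPM in *sid-1(jam86)* and 296 to 314 CPM in *sid-1(jam80)*, against 293 to 312 CPM in wild type. These groups overlapped, and the log2 fold changes over wild type were 0.03 (95% interval -0.14 to 0.20) in *sid-1(jam113)*, -0.07 (-0.20 to 0.06) in *sid-1(jam86)* and 0.02 (-0.09 to 0.13) in *sid-1(jam80)*. In *sid-1(qt9)* it had 339 and 309 CPM, against 279 and 263 CPM in wild type, apart by 0.25 (0.05 to 0.45, adjusted p = 0.191 by edgeR).

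The 7 genes lay to the same side in *sid-1(qt9)*, where all 7 log2 fold changes were above 0 with a median of 0.24, while the median over all genes tested was -0.02. *rde-1* had the smallest, 0.06, and was the gene that overlapped wild type. All 7 were above 0 in *sid-1(jam113)* over wild type as well, with a median of 0.07. In *sid-1(jam80)* over wild type 6 of 7 were above 0, also with a median of 0.07. In *sid-1(jam86)*, *sid-1(tm2700)* and the rescued strain over wild type 2 of 7 were above 0 each. In *sid-1(qt9)* genes of the germline marker list summed to 685 and 801 TPM, against 589 and 620 TPM in wild type. Their median log2 fold change was 0.20 over 14 genes, with 0 called by edgeR. Among the related lists described below, the medians in *sid-1(qt9)* were 0.21 for other Argonautes and 0.23 for microRNA partners. They were 0.16 for secondary small RNA synthesis and amplification and 0.15 for dsRNA processing. The piRNA genes had 0.055 and the dsRNA transport genes, *sid-1* included, had -0.19. The 14 oocyte and embryo genes summed to 2746 and 3270 TPM in *sid-1(qt9)*, against 2542 and 2739 TPM in wild type. By edgeR 3 of 5 yolk genes rose there, *vit-3* by 0.89 (adjusted p = 0.00188). Of the 10 soma markers 3 rose, the muscle genes *myo-2* (0.64, adjusted p = 0.00501 by edgeR), *myo-3* and *unc-54*, while the median of that list was 0.01. The 6 cuticle genes had a median of 0.35, with 1 called higher, *sqt-3* (0.63, adjusted p = 0.000292 by edgeR). The part of these markers in the values of the Argonaute genes was not tested.

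In the rescued strain the oocyte and embryo marker list summed to 1859 and 2490 TPM, against 2542 and 2739 TPM in wild type, with a median log2 fold change of -0.26 and 1 of 14 genes called lower, *mex-5* (-0.47, adjusted p = 0.0384 by edgeR). Of the 10 soma markers 2 fell there, the muscle genes *myo-2* (-1.33) and *myo-3* (-0.55), at adjusted p values of 3.43e-09 and 0.00273 by edgeR. By edgeR 2 of 5 yolk genes rose, *vit-3* by 1.21 and *vit-4* by 1.12 (adjusted p = 1.55e-05 and 0.00357), and 3 of 6 cuticle genes fell, *bli-1* the most (-1.54, adjusted p = 1.48e-06). The median of the 7 Argonaute genes in that comparison was -0.19, against -0.00 over all genes tested, and the part of these markers in it was not tested.

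The change in *sid-1(jam113)* was compared with that in *sid-1(jam80)* by an interaction term in 1 fit of both mutants and both wild types. The differences of the log2 fold changes were between -0.08 (*alg-2*) and 0.08 (*rde-1*), with 95% intervals within -0.35 and 0.34, and adjusted p values between 0.908 and 0.990 by edgeR. None of the 7 had an unadjusted p under 0.05, limma with voom and DESeq2 called 0 of 7, and 0.250% of all genes passed by edgeR.

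**Figure D3:**
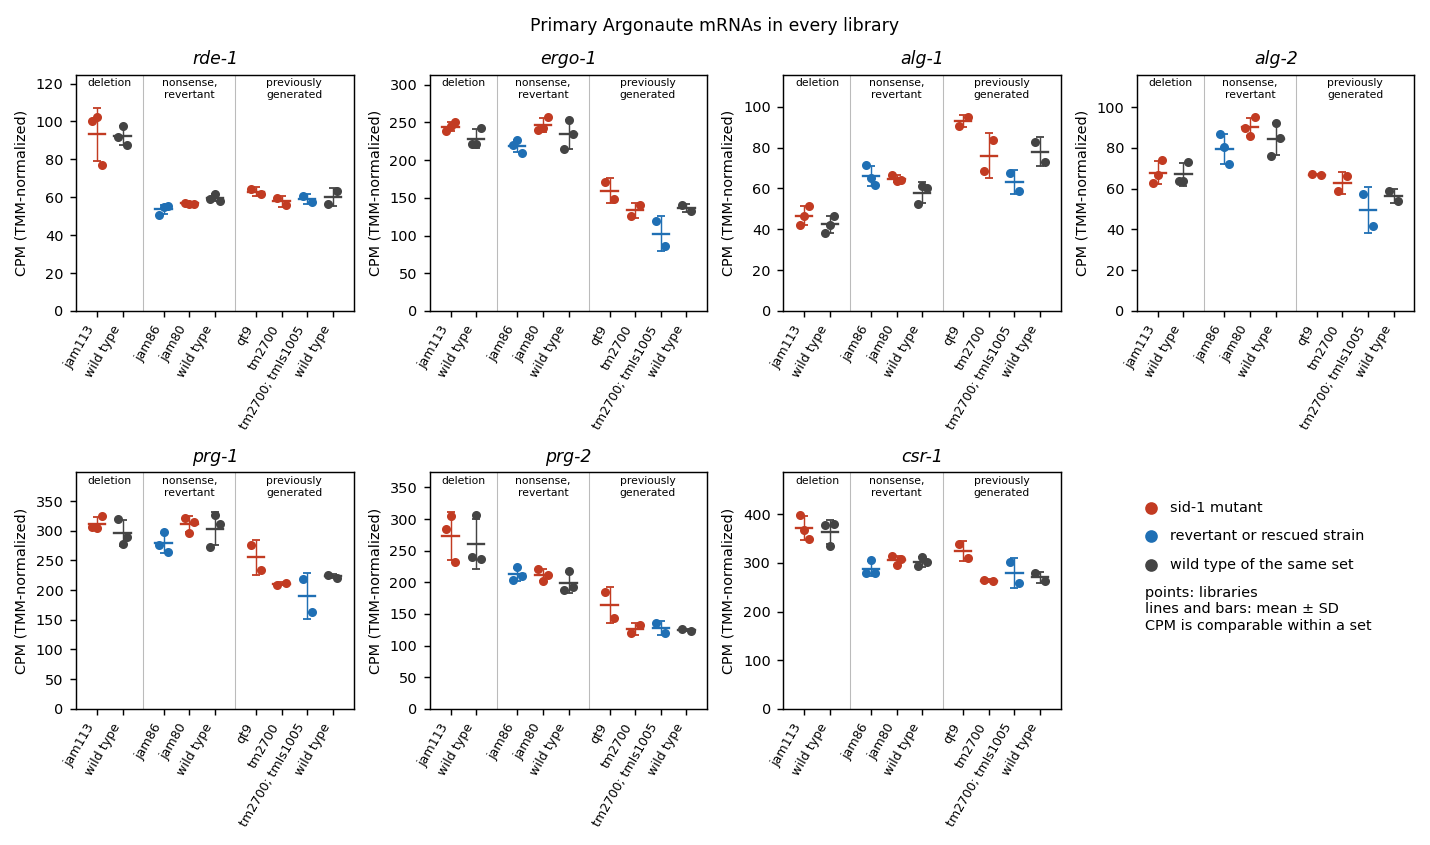
TMM-normalized CPM of each gene in all 23 libraries (points), with the mean and SD of each strain, grouped by set. *sid-1* mutants are red, the revertant and the rescued strain blue and wild type dark grey. Strains of a set overlap for most genes. The 2 libraries of *sid-1(qt9)* lie above wild type for every gene but *rde-1*, in a comparison where 47.1% of all genes did not overlap. In the rescued strain 1 library is the lowest of its set for *ergo-1*, *alg-1*, *alg-2*, *prg-1* and *csr-1*.

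The ratios between related genes differed between sets. The TPM of *alg-2* over that of *alg-1* was between 2.13 and 2.48 in the deletion set and between 1.74 and 2.26 in the nonsense and revertant set, but between 1.05 and 1.28 among the previously generated alleles. It was lowest among the plate strains in *sid-1(jam86)*, at 1.81 ± 0.0601, against 2.10 ± 0.113 in *sid-1(jam80)* and 2.19 ± 0.0647 in wild type (SD, n = 3 each). No test was made of these ratios.

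The TPM of *prg-2* over that of *prg-1* was between 0.758 and 1.17 in the deletion set, between 0.657 and 0.839 in the nonsense and revertant set and between 0.592 and 0.785 among the previously generated alleles. The sum of estimated counts over each gene was whole within 0.01 in all 23 libraries for *rde-1*, *ergo-1*, *alg-1*, *alg-2* and *csr-1*, and in 22 of 23 for *prg-1* and *prg-2*, which were both off by 0.44 counts in the remaining library. Gene sums were whole in all libraries for 85.36% of 21280 genes, and a fraction would be left where the quantification divided reads between genes. *csr-1* shares 4354 bases on the same strand with *frpr-10*, which had at most 40 counts, and *ergo-1* and *prg-1* overlap antisense genes by 17 and 12 bases. The study names a stranded kit for the plate sets and does not state the strandedness of the libraries of the previously generated alleles. Whether reads of these antisense overlaps can be told apart in that set is therefore not known. On the same strand *alg-1* overlaps a small nucleolar RNA gene by 96 bases and *alg-2* overlaps noncoding RNA genes by 201 and 129 bases. *alg-2* also overlaps an antisense noncoding RNA gene by 201 bases. These noncoding genes were not quantified.

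Reads were also divided among the transcripts of 1 gene, and these shares are estimates. *csr-1* and *alg-2* each had 2 transcripts, and F20D12.1b.1 and T07D3.7b.1 held the larger share of TPM in all 23 libraries. The minor *csr-1* transcript F20D12.1a.1 made up 1.60% ± 0.735 of *csr-1* TPM in *sid-1(jam113)* and 1.56% ± 0.283 in wild type, and 12.3% ± 0.302 in *sid-1(jam80)* and 9.79% ± 2.38 in wild type (SD, n = 3 each). For *alg-1*, F48F7.1a.1 led in 22 libraries, with 85.1% ± 3.40 in *sid-1(jam113)* and 87.4% ± 2.50 in wild type, and with 55.0% ± 3.03 in *sid-1(jam80)* and 58.2% ± 11.2 in wild type.

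*ergo-1* differed most between sets. Its transcripts R09A1.1a.1, R09A1.1b.1, R09A1.1c.1 and R09A1.1d.1 are 3653, 2422, 1579 and 1244 bases long. The longest held 71.4% to 80.2% of *ergo-1* TPM in *sid-1(jam86)* and 71.5% to 77.7% in *sid-1(jam80)*, against 65.0% to 74.5% in wild type, while in the deletion set it held 26.6% to 29.0% in *sid-1(jam113)*, against 20.6% to 24.3% in wild type. R09A1.1b.1 was listed at 0 in all 9 libraries of the nonsense and revertant set and made up 15.8% to 23.8% of *ergo-1* TPM in the other 14. By TPM R09A1.1a.1 led in 11 libraries and R09A1.1d.1 in 12, and by share of estimated counts R09A1.1a.1 led in all 23.

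**Figure D4:**
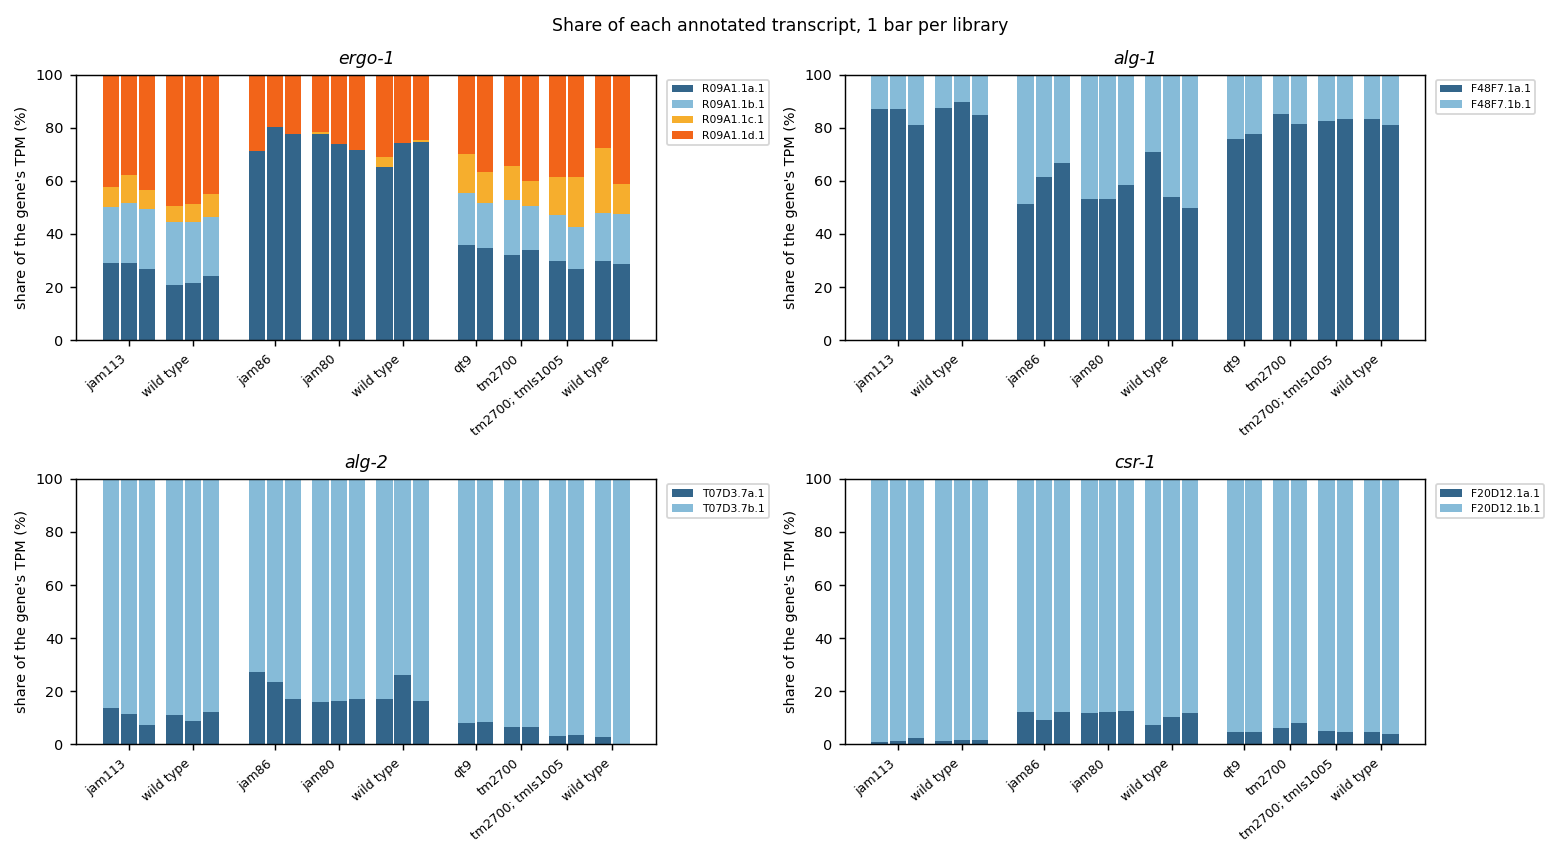
Share of TPM (%) of each annotated transcript of *ergo-1*, *alg-1*, *alg-2* and *csr-1*, 1 stacked bar per library, grouped by strain within each set. The bars resemble each other within a set and differ between sets, most of all for *ergo-1*, whose longest transcript R09A1.1a.1 is dark blue.

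Within sets, the share of R09A1.1a.1 was higher without overlap in *sid-1(jam113)* than in wild type (28.2% ± 1.38 against 22.1% ± 1.94, SD, n = 3 each) and that of the shortest, R09A1.1d.1, lower (41.3% ± 2.94 against 47.7% ± 2.32). The share of R09A1.1a.1 was 36.0% and 34.8% in *sid-1(qt9)*, 32.0% and 34.1% in *sid-1(tm2700)* and 29.9% and 27.0% in the rescued strain, against 29.7% and 28.8% in wild type. In all 7 libraries of *sid-1(jam113)*, *sid-1(qt9)* and *sid-1(tm2700)* it was thus above wild type, whereas in *sid-1(jam80)* it overlapped wild type.

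These shares were picked out after their values were seen, and no test was made of them. Ranges of transcript shares did not overlap for 2 of 10 transcripts of the 4 genes in *sid-1(jam113)* over wild type (11.8% of all transcripts of genes with several), and for 0 of 9 in *sid-1(jam80)* over wild type (7.84%), *sid-1(jam86)* over wild type (10.2%) and *sid-1(jam86)* over *sid-1(jam80)* (11.8%). The counts were 5 of 10 for *sid-1(qt9)* over wild type (33.7%), 6 of 10 for *sid-1(tm2700)* over the rescued strain (31.5%), 5 of 10 for *sid-1(tm2700)* over wild type (31.2%) and 3 of 10 for the rescued strain over wild type (30.7%). With 2 transcripts a gene, both shares of that gene move together.

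Lists of other genes of the same pathways were read in the same fits. Over the 8 comparisons, edgeR called 0 of 96 tests of 12 genes of dsRNA processing such as *dcr-1* and *rde-4* (8 with an unadjusted p under 0.05, 0 called by limma with voom and 0 by DESeq2) and 0 of 104 tests of 13 measured piRNA genes (7, 0 and 0). It called 0 of 72 tests of 9 microRNA partners (14 with an unadjusted p under 0.05, 0 by limma with voom and 2 by DESeq2) and 0 of 96 tests of 12 genes of secondary small RNA synthesis and amplification (16, 0 and 2). Of 4 genes of dsRNA transport, *sid-1* alone was called by edgeR, and DESeq2 called *sid-5* as well. In their 32 tests 10 had an unadjusted p under 0.05, and limma with voom gave 7 calls and DESeq2 8.

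Of 15 other Argonautes, 3 were called, in 114 tests with 5 calls and 34 unadjusted p under 0.05 (6 calls by limma with voom and 10 by DESeq2). In *sid-1(jam86)* over wild type, *wago-10* (0.54, adjusted p = 0.00805 by edgeR) and *alg-3*, a sperm Argonaute (0.34, adjusted p = 0.0304 by edgeR), rose and *sago-2*, an Argonaute of secondary small RNAs, fell (-0.46, adjusted p = 0.0314 by edgeR). *sago-2* rose in *sid-1(tm2700)* over the rescued strain (1.05, adjusted p = 0.000367 by edgeR) and over wild type (1.59, adjusted p = 0.00217 by edgeR). The median of this list in *sid-1(jam86)* over wild type was -0.07, against -0.08 for the 7 genes and 0.02 for all genes tested. By edgeR 2 of 12 sperm markers were called higher there, *spe-11* (0.35) and *gsp-3* (0.26), and 2 of 6 cuticle genes. The medians of these lists were 0.25 each. Oocyte and embryo markers had a median of -0.17 and germline markers of -0.11, each with 1 of 14 called lower. The part of these markers in the values of the Argonaute genes was not tested.

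Likeness to other genes was described over the 15 plate libraries by the correlation of log2 CPM centred within each set, among 16475 genes. Among the 7, *ergo-1* and *alg-2* were most alike (Pearson's r = 0.845), followed by *ergo-1* and *prg-1* (0.743), and *rde-1* and *alg-1* were least alike (-0.595). The paralogs *alg-1* and *alg-2* had 0.578 and *prg-1* and *prg-2* had -0.05. *rde-1* was most like *rfp-1* (0.969), *atl-1* (0.95) and *lin-35* (0.949), and *ergo-1* most like *ubxn-3* (0.955), *lin-41* (0.941) and *let-711* (0.938). *alg-1* was most like *shn-1* (0.931), *gsa-1* (0.93) and *din-1* (0.928), and *alg-2* most like *spk-1* (0.952), *zer-1* (0.95) and *wnk-1* (0.948). For *prg-1* the genes were *kars-1* (0.943), *T07C4.3* (0.941) and *dkc-1* (0.939), and for *prg-2* they were *F54B3.1* (0.954), *F59E12.6* (0.914) and *sql-1* (0.913). *csr-1* was most like *eif-3.C* (0.938), *copd-1* (0.92) and *uba-1* (0.915). These values share the same libraries and their depth, and are the highest of many pairs.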

How the data were processed

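PolyA+ RNA of mixed-stage animals was sequenced in 23 libraries, and the authors deposited estimated counts and TPM per transcript, made with cutadapt and Salmon per the labels (versions not given in the labels). The estimated counts are not normalized, and the deposited TPM are scaled to transcript length and to a fixed total within each library. The authors used an older annotation, so 31176 transcripts were matched to genes of WBcel235 (Ensembl release 115) by ID and 4485 by sequence name, and 88 were not matched.

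Estimated counts were summed per gene and rounded to whole numbers. Genes above 0.1 CPM in at least 3 libraries (2 for the previously generated alleles) were tested with the quasi-likelihood test of edgeR 4.0.16 in R 4.3.3 after TMM scaling, with Benjamini-Hochberg adjustment over all genes tested and a threshold of 0.05. Each comparison was fitted on its own groups. The alternatives tried were DESeq2 1.42.0, voom in limma 3.58.1, other scaling, no filter, counts rebuilt from TPM and length, a replicate block, all strains of a set in 1 fit, and each library left out. The test code was tested on simulated data. The study describes its replicates as biological, and p-values measure the spread between these libraries. Replicate pairs differed by more than sampling noise (chi-square per degree of freedom 5.01 to 124.1 over 19 pairs).

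All 7 genes are described, with *sid-1*, at most 3 called genes per list and comparison with the largest fold changes, and the 3 genes most like each. The members and lists were chosen with earlier results of these data known. A planned comparison of sequence shared between members was not run. Total counts of 22147631 to 79287591 per library set the precision, and for transcripts the division of reads is itself an estimate.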

Additional observations from a re-analysis of the deposited data

Results flagged for a closer look

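For 3 genes every library of one *sid-1* mutant lay above the mean of its wild type and every library of another mutant below it. The mean log2 CPM of *rde-1* differed from wild type by 0.073 in *sid-1(qt9)*, by -0.07 in *sid-1(jam80)* and by -0.053 in *sid-1(tm2700)*. That of *prg-1* differed by 0.187 in *sid-1(qt9)* and by 0.077 in *sid-1(jam113)*, and by -0.084 in *sid-1(tm2700)*. That of *csr-1* differed by 0.259 in *sid-1(qt9)* and by -0.037 in *sid-1(tm2700)*. These differences between mutants were not tested, *sid-1(qt9)* and *sid-1(tm2700)* share their wild type, and groups of 2 or 3 libraries often fall on one side of a mean by chance.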

How the results depend on the processing

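Of 784 alternative values for 63 results of single genes, 768 stayed on the same side of the threshold with the same direction where called, 16 passed it and 0 reversed as a call, while 57 values that were not called changed sign. The number of the 7 genes called was 0 under every alternative for *sid-1(jam113)*, *sid-1(jam80)*, *sid-1(jam86)* and *sid-1(tm2700)* over wild type and for the interaction. For *sid-1(jam86)* over *sid-1(jam80)* it was 1 with DESeq2, and 0 to 1 with a library left out. Without a filter on low counts it was 1 for *sid-1(qt9)* over wild type, 1 for *sid-1(tm2700)* over the rescued strain and 1 for the rescued strain over wild type. With a library left out these were 0 to 3, 0 to 3 and 0 to 4, the highest without replicate 2 of *sid-1(qt9)* or replicate 1 of the rescued strain. The order of levels was the same in 3 of 9 strains and sets with CPM per transcript length. The causes were not tested.

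Same-numbered replicates did not deviate together in every pair of any comparison (correlations from -0.0799 to 0.321), and the labels give them only a shared number. In *sid-1(jam113)* over wild type, 2 of 3 libraries were most like the wild-type library of their own number. With 2 libraries a group both pairs necessarily have the same correlation, so the check cannot decide there. Whether equal numbers mark a shared preparation is therefore not settled. With the replicate block 1 gene was called in the rescued strain over wild type (*ergo-1*, -0.43, adjusted p = 0.0159 by edgeR), and 0 in the other comparisons. Over all genes the block gave 11 calls against 33 for *sid-1(jam113)* over wild type, 21 against 11 for *sid-1(jam80)* over wild type and 88 against 207 for *sid-1(jam86)* over *sid-1(jam80)*. DESeq2 called 582 genes against 33 by edgeR for *sid-1(jam113)* over wild type, 34 against 11 for *sid-1(jam80)* over wild type, 929 against 545 for *sid-1(jam86)* over wild type, 573 against 207 for *sid-1(jam86)* over *sid-1(jam80)*, 229 against 379 for *sid-1(tm2700)* over the rescued strain, 394 against 648 for the rescued strain over wild type and 321 against 43 for the interaction. Without a filter edgeR called 77, 28, 472, 759, 611, 403 and 126 genes, against 33, 11, 207, 336, 379, 204 and 43 with it, for *sid-1(jam113)*, *sid-1(jam80)*, *sid-1(jam86)* over *sid-1(jam80)*, *sid-1(qt9)*, *sid-1(tm2700)* over the rescued strain, *sid-1(tm2700)* and the interaction. With counts rebuilt from TPM and length edgeR called 6 against 11 genes for *sid-1(jam80)*, 129 against 336 for *sid-1(qt9)*, 204 against 379 for *sid-1(tm2700)* over the rescued strain, 115 against 204 for *sid-1(tm2700)* and 383 against 648 for the rescued strain. With all strains of a set in 1 fit it called 17 against 11 for *sid-1(jam80)* and 191 against 379 for *sid-1(tm2700)* over the rescued strain.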
